A study of Mus musculus with 6 samples.

Results

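The genes described here are 10 transcription factors and regulators of the immediate early response: Fos, Fosb, Fosl1 and Fosl2, Jun, Junb and Jund, Atf3, Egr1 and Dusp1. They were taken by gene symbol from the deposited gene table, where 9 of the 10 were found among 11754 listed genes, and all 9 were among the 10932 tested; Fosb had no row and was not analysed here. Polyadenylated RNA was sequenced from the mouse cell line 2H11, of the C3H/HeJ strain, which the labels call endothelial and trace to axillary lymph node. All cells were starved and then kept for 48 h without an added factor (untreated, 3 samples) or with BMP4 (3 samples), a secreted growth factor of the TGF-β superfamily whose receptors activate SMAD transcription factors. No dose of BMP4 was found in the labels. Nothing there says that the samples of a group were separate cultures, and the spread behind each p-value may therefore be technical.

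AP-1 is a dimer of basic leucine zipper proteins, in which a Jun protein pairs with itself or with a Fos or ATF protein. Many of its subunits are immediate early genes, whose transcription rises quickly and briefly after growth factors or stress act through MAP kinases. Egr1 is a zinc finger factor of the same early response, and Dusp1 encodes a phosphatase that switches MAP kinases off again. The samples were taken at a single late time, so they describe levels long after BMP4 was added and not the early peak.

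Values are FPKM (fragments scaled to gene length and to the fragments of the library), which are per length and can be compared between genes. The sum of FPKM over all listed genes lay between 252329 and 273562 in the 6 samples. These sums are not read numbers, and the read depth is not known. The labelled cell type was checked against marker genes. Of 10 endothelial markers, Pecam1, Cdh5, Kdr, Tek, Tie1, Vwf, Cldn5 and Esam had no row and were not analysed here, and the summed FPKM of the other two, Eng and Egfl7, was 16.7 to 19.0 in untreated and 16.8 to 17.8 in BMP4 samples. All 8 fibroblast markers were listed, with a summed FPKM of 2719 to 2770 in untreated samples and 1500 to 1511 with BMP4, and 3 of them rose and 5 fell. In the leukocyte list 2 of 8 genes were listed (Cd68 and Lyz2), at a summed FPKM of 4.49 to 7.13 and 5.51 to 7.03. Fewer cells of a type and less RNA per cell cannot be told apart in such bulk samples, and the part of these marker levels in the results below was not tested.

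In untreated cells the AP-1 genes spanned a wide range of levels, led by Jund, known for steady rather than brief expression. Jund was highest at 82.6 ± 6.05 FPKM (SD, n = 3), followed by Fosl2 at 26.0 ± 2.27, Dusp1 at 17.3 ± 0.955 and Jun at 11.6 ± 0.601. Egr1 (8.48 ± 0.429) and Junb (8.25 ± 0.927) came next and overlapped in their samples. Atf3 at 4.32 ± 0.288, Fosl1 at 2.12 ± 0.607 and Fos at 1.06 ± 0.164 were lowest, and Fos lay above only 8.02% of the listed genes. Apart from Egr1 and Junb, neighbours in this order did not overlap. With BMP4 the order changed in the middle: Egr1 moved above Jun, Fosl1 moved above Atf3, and the samples of Jun overlapped with those of Dusp1, as did those of Dusp1 with those of Junb.

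**Figure D1:**
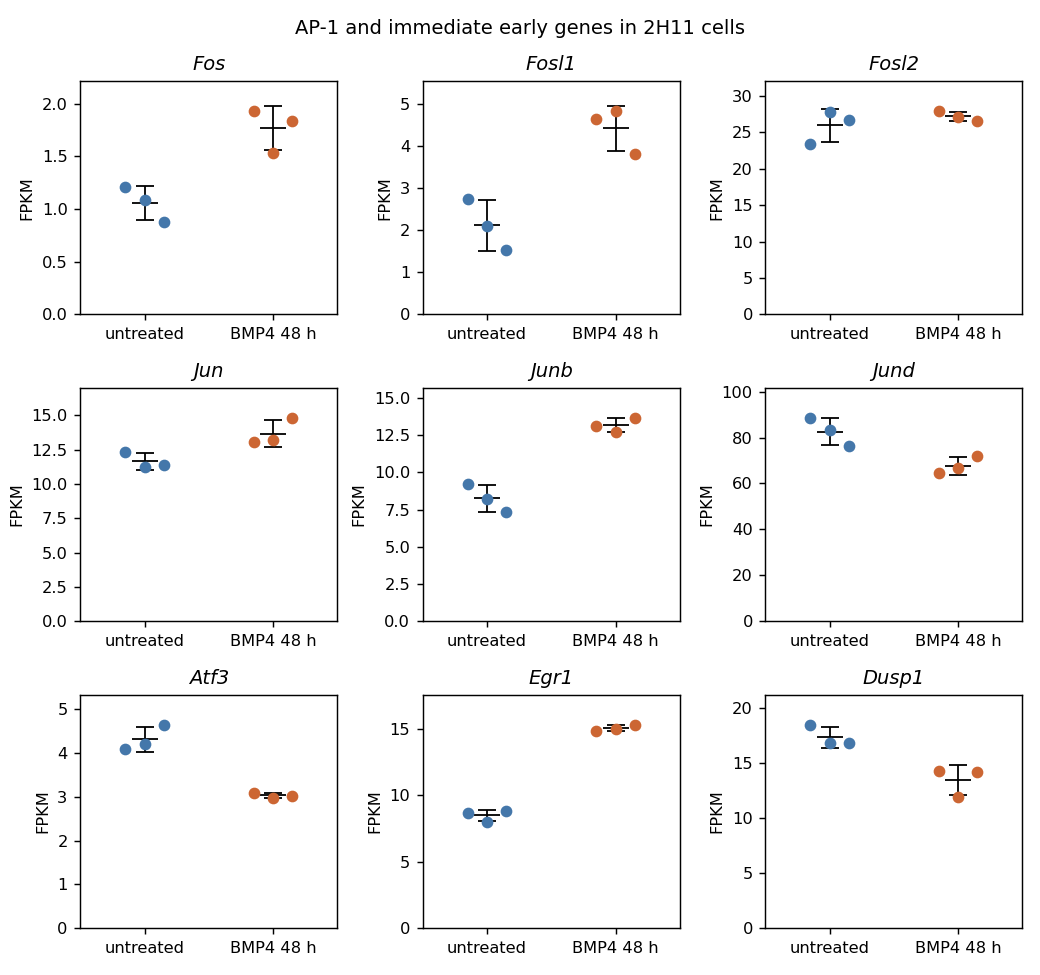
FPKM of the 9 genes in each sample, with untreated samples in blue and BMP4 samples in orange; the bar is the mean and the whiskers are 1 SD over the samples of a group. Each panel starts at 0 and has its own scale, and the groups overlap for Fosl2 alone.

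After BMP4, 4 of the 9 genes were higher (Egr1, Junb, Fosl1 and Fos), 3 were lower (Atf3, Dusp1 and Jund), and Jun and Fosl2 did not pass the threshold, an adjusted p of 0.05 in limma's moderated test with Benjamini-Hochberg adjustment over all tested genes. Over all tested genes 13.6% were higher and 14.3% lower. The samples of the groups did not overlap for 8 of the 9 genes, against 45.5% of all tested genes. The median absolute log2 fold change was 0.40 over the 9 genes and 0.15 over all tested genes, and with sign the medians were 0.21 and -0.0013. Fold changes on the log2 scale are those of FPKM + 1, which understates the change of the lowest genes, Fos and Fosl1 above all. Leaving out any 1 sample lowered the number of all genes called higher from 1487. It was 985 without BMP4 replicate 1, 1009 without BMP4 replicate 2, and at most 1419, without untreated replicate 1.

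**Figure D2:**
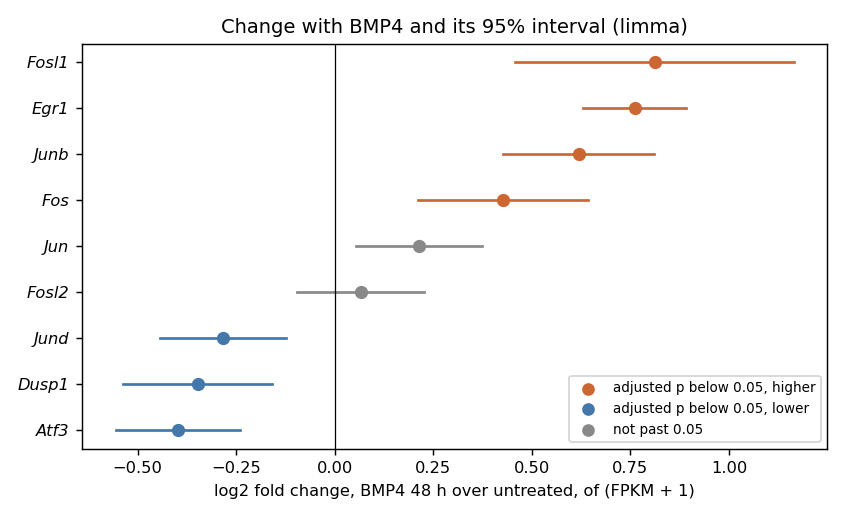
Log2 fold change of FPKM + 1 with BMP4 for each gene (point) and its 95% confidence interval from limma (line), coloured by whether the adjusted p passed 0.05. Fosl1 is at the top with 0.81 and Atf3 at the bottom with -0.40.

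Start regions of genes that rose and that fell are shown so that they can be set side by side. RefSeq (GRCm38.p6) gave a region of 250 bases before and 50 bases after the start for 8 of the 10 genes, Fosb included. Those of Fos (chr12:85473640-85473939, plus strand) and Junb (chr8:84978699-84978998, minus strand), which rose, and of Dusp1 (chr17:26508423-26508722, minus strand) and Atf3 (chr1:191183284-191183583, minus strand), which fell, read 5′ to 3′ along the gene as follows. Capitals mark the core TGACG of the cyclic AMP response element on either strand, at which ATF, CREB and some AP-1 dimers are known to bind, and the GC-rich element GGCGCC, known as a site of BMP SMADs.
Fos: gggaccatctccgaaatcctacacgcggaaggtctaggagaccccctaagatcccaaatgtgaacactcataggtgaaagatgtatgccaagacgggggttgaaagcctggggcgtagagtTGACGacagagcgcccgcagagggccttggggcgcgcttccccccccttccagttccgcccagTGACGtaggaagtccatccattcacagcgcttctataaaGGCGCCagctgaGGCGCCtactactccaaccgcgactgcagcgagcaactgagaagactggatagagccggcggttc
Junb: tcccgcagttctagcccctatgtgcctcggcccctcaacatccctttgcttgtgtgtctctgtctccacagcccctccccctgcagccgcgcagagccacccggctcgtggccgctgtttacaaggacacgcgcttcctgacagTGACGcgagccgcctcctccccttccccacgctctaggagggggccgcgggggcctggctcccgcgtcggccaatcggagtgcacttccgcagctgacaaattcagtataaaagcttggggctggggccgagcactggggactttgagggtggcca
Dusp1: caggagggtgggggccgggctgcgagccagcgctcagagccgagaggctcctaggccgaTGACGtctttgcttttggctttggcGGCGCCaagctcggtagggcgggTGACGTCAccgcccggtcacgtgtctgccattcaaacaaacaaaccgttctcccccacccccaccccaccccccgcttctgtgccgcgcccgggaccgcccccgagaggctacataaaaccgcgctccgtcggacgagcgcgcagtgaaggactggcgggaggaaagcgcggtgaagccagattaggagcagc
Atf3: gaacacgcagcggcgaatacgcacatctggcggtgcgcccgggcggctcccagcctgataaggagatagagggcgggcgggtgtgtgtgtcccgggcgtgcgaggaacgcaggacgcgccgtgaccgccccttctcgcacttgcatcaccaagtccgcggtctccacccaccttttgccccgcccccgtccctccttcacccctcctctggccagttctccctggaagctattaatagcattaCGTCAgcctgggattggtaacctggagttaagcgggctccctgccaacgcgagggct

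Counted from the RefSeq start, with the base before it as -1, the Fos region held TGACG at -129 and -66 and GGCGCC at -27 and -15. The Junb region held 1 TGACG, at -106, and the Atf3 region 1, at -7 on the reverse strand. In the Dusp1 region TGACG began at -191, -143 and -140. The last pair overlapped as the full element TGACGTCA, and GGCGCC began at -166. Of all 32851 RefSeq start regions of this length, 20.8% held TGACG on either strand, 1.79% the full element and 11.9% GGCGCC, which reads the same on both strands. The AP-1 element TGACTCA, found in 5.20% of all regions, and the CArG box bound by SRF, found in 1.63%, had no match in any of the 8 regions. Egr1 and Fosl1 had no region and were not searched, and letters more than 250 bases before a start lay outside the search. The printed regions all held TGACG, but not every region did. Of those not printed, Fosb held TGACG at -60 and GGCGCC at -125. Fosl2 held GGCGCC at -203 and no TGACG, and Jun and Jund, which fell, held neither. TGACG was thus found in some genes that rose and in some that fell, and these matches are descriptions of the letters, not of binding. The start in the deposited table was the RefSeq start for Fos and Jun and lay 30 bases from it for Junb, 47 for Dusp1, 671 for Fosl2 and 1210 for Jund, and 34706 bases away for Atf3, whose listed locus begins far upstream.

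Among the Fos family, which dimerizes with Jun proteins and cannot pair with itself, the low members rose and the high member did not pass. Fosl1 (FRA-1; chromosome 19, 5447703 to 5455945, GRCm38) was at 2.74, 2.10 and 1.53 FPKM in the untreated samples and at 4.64, 4.83 and 3.81 with BMP4. Every BMP4 sample was above every untreated sample, and the mean was 2.09-fold higher (log2 fold change 0.81 with SE 0.15, adjusted p = 0.00713 by limma). Fos itself (chromosome 12, 85473890 to 85477273), the classical immediate early subunit, was at 1.21, 1.09 and 0.881 FPKM and rose to 1.93, 1.53 and 1.84, again without overlap. Its mean rose 1.67-fold (log2 fold change 0.43 with SE 0.09, adjusted p = 0.0132 by limma), and without BMP4 replicate 1 it no longer passed (0.0536).

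Fosl2 (FRA-2; chromosome 5, 32135801 to 32157842), the most abundant Fos family gene here, was at 23.5, 27.9 and 26.7 FPKM in untreated and 27.9, 27.2 and 26.5 in BMP4 samples. Untreated replicate 1 was the lowest of the 6 and the other samples were intermixed. The log2 fold change was 0.07 with a 95% interval from -0.09 to 0.23 (limma adjusted p = 0.510), and its sign turned without untreated replicate 1 (-0.0032). Added up, the 3 genes came to 29.2 ± 1.81 FPKM in untreated and 33.4 ± 1.14 in BMP4 samples. Fosl2 made up 85.6%, 89.7% and 91.7% of that sum in untreated samples and 80.9%, 81.0% and 82.4% with BMP4. The share of Fosl1 was 7.34% ± 2.42 (SD, n = 3) without and 13.2% ± 1.29 with BMP4, and that of Fos 3.64% ± 0.694 and 5.29% ± 0.634.

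The Jun family showed opposite changes in its members. Junb (chromosome 8, 84974484 to 84978718), an immediate early Jun protein that is a weaker activator than Jun, was at 9.20, 8.20 and 7.34 FPKM in untreated samples and at 13.1, 12.7 and 13.6 with BMP4. The groups were well apart, with a mean 1.60-fold higher (log2 fold change 0.62 with SE 0.08, adjusted p = 0.00151 by limma), and the call was kept under every alternative run. Jund (chromosome 8, 70698949 to 70700616), the constitutive Jun protein, went the other way, from 88.4, 83.2 and 76.3 FPKM to 64.6, 66.6 and 71.9. Its highest BMP4 sample was below its lowest untreated sample, though both groups were spread, and the log2 fold change was -0.28 (SE 0.07, adjusted p = 0.0201 by limma). It did not pass in limma without untreated replicate 2 (adjusted p = 0.0653), BMP4 replicate 1 (0.0777) or BMP4 replicate 2 (0.0714).

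Jun (chromosome 4, 95049034 to 95052222), the founding AP-1 subunit, was at 12.3, 11.2 and 11.4 FPKM in untreated and 13.1, 13.2 and 14.8 in BMP4 samples. The groups did not overlap, but the difference was just outside the threshold (log2 fold change 0.21, SE 0.07, 95% interval 0.06 to 0.37, limma adjusted p = 0.0534). It passed with rescaling to equal sums (limma adjusted p = 0.0139), trimmed-mean scaling (0.0394) or median-ratio scaling (0.0364), and without untreated replicate 1 (0.0418).

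Although Jund alone did not overlap between groups, the summed FPKM of the 3 Jun genes did. It was 109.9, 102.6 and 95.03 in untreated and 90.8, 92.4 and 100.3 in BMP4 samples. The composition of that sum was tighter than the sum itself. Jund made up 80.4%, 81.1% and 80.3% in untreated samples and 71.1%, 72.0% and 71.7% with BMP4. The share of Junb was 8.37%, 7.99% and 7.73% without and 14.5%, 13.8% and 13.6% with BMP4, and that of Jun 11.2%, 10.9% and 11.9% against 14.4%, 14.2% and 14.7%. The ratio of Junb to Jund was 0.0996 ± 0.00401 in untreated and 0.195 ± 0.00756 in BMP4 samples. Such a ratio is taken within a sample, so no scaling between samples moves it. It shows unequal change and not which of the 2 genes moved.

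**Figure D3:**
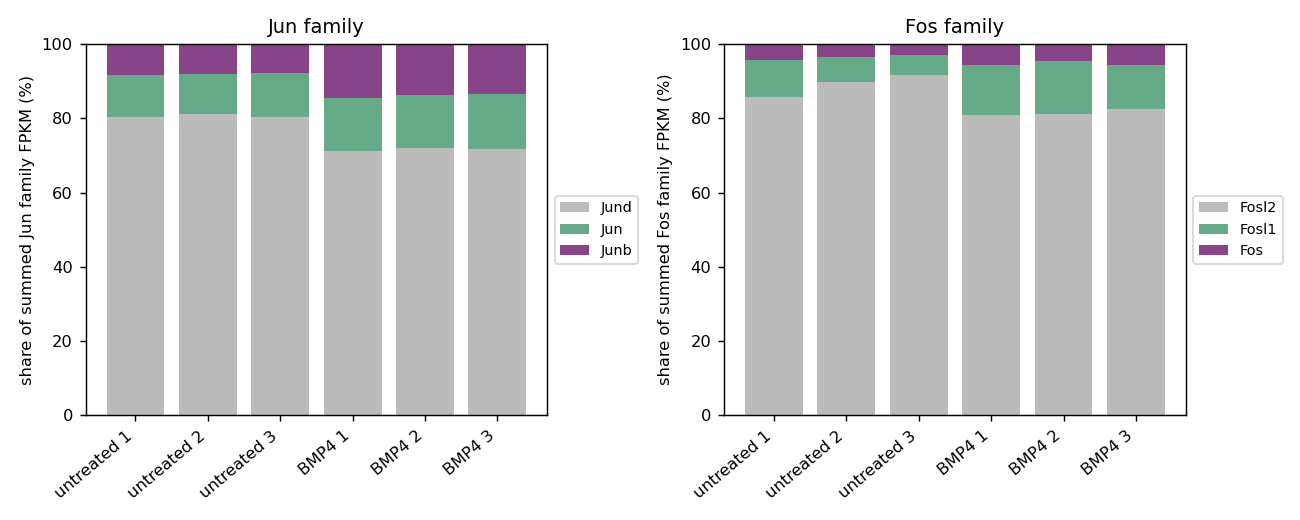
Share of each gene in the summed FPKM of the Jun family (left) and the Fos family (right), in percent, with 1 bar for each of the 6 samples. Jund takes 80.3% to 81.1% of the Jun bars in untreated samples and 71.1% to 72.0% with BMP4.

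Exons of 4 of these genes overlap exons of a gene on the opposite strand in GENCODE M21: Fosl1 with Ccdc85b, Jun with Junos, Junb with Prdx2 and Jund with Gm11175. In the deposited loci Fosl1 ended at 5455945 and Ccdc85b began at 5456789 on chromosome 19, so this pair did not overlap there. The libraries were strand-specific per the labels' protocols, and no source used here gives whether counting used the strand, so a contribution of the partner was not separable. Of the partners with a row, Ccdc85b was at 24.9 ± 2.01 and 26.7 ± 1.59 FPKM and Prdx2 at 50.4 ± 4.48 and 52.1 ± 3.66 FPKM in untreated and BMP4 samples, and neither passed.

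Atf3 (chromosome 1, 191170296 to 191218039), a stress-induced ATF protein that pairs with Jun proteins and often represses, fell. It was at 4.10, 4.20 and 4.64 FPKM in untreated samples and at 3.10, 2.98 and 3.02 with BMP4. The BMP4 samples lay close together, all below the untreated ones, and the mean was 1.42-fold lower (log2 fold change -0.40 with SE 0.07, adjusted p = 0.00468 by limma). The tested genes whose centred log2 values over the 6 samples were nearest to those of Atf3 were Enpp2, the gene of autotaxin, at a root mean square distance of 0.0208, Erbb3, a receptor tyrosine kinase gene, at 0.0302, and Cped1 at 0.0353. In all, 467 genes, these included, lay within 0.1 of Atf3, so this pattern was common.

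Egr1 (chromosome 18, 34859823 to 34864984), the early zinc finger factor induced through SRF and its partners, had the smallest p of the 9 genes. It was at 8.65, 7.99 and 8.80 FPKM in untreated samples and at 14.85, 15.03 and 15.29 with BMP4. The replicates were tight on both sides of a wide gap, and the mean rose 1.78-fold, from 8.48 ± 0.429 to 15.1 ± 0.221 FPKM (log2 fold change 0.76 with SE 0.06, adjusted p = 8.2e-05 by limma). By p it was number 292 of the 10932 tested genes. The nearest genes by the same distance were Phlda1 at 0.0199, Optn, which encodes the autophagy receptor optineurin, at 0.0278, and Cdk19, a kinase gene of the Mediator complex, at 0.0312. Phlda1 went from 7.36, 6.95 and 7.70 to 13.1, 13.5 and 13.6 FPKM, and 99 genes lay within 0.1 of Egr1. Nab1 and Nab2, whose proteins bind Egr1 and repress its activity, did not pass, with log2 fold changes of -0.11 and 0.04.

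Dusp1 (chromosome 17, 26505590 to 26508519), the nuclear MAP kinase phosphatase, fell as a gene from 18.4, 16.8 and 16.8 FPKM to 14.3, 11.9 and 14.1. The groups did not overlap, BMP4 replicate 2 was the lowest sample, and the mean was 1.29-fold lower (log2 fold change -0.35 with SE 0.08, adjusted p = 0.0175 by limma). Its listed transcript did not pass. Dusp1-001, a coding transcript and the 1 Dusp1 transcript in the table, was at 13.4, 12.0 and 8.73 FPKM in untreated and 17.3, 6.30 and 16.4 in BMP4 samples. BMP4 replicate 2 was lowest of the 6 and the other BMP4 samples were highest, so the groups overlapped (log2 fold change 0.12 with SE 0.39, adjusted p = 0.901 by limma over 17213 transcripts). The sign of that value turned without untreated replicate 3 (-0.05), BMP4 replicate 1 (-0.12) or BMP4 replicate 3 (-0.08).

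Weighted by GENCODE M21 lengths, Dusp1-001 accounted for 43.6%, 43.1% and 31.3% of the Dusp1 gene value in untreated samples and for 72.8%, 31.8% and 69.7% with BMP4. The gene length used, 3311 exonic bases, is longer than the deposited Dusp1 locus. The length behind the deposited gene value was therefore shorter and is not known. These shares are thus too low, and the remainder given next is too high, by an unknown factor. The remainder, which belongs to other transcripts of the gene, was 10.4, 9.55 and 11.5 in units of gene FPKM without and 3.88, 8.11 and 4.29 with BMP4. With this length the remainder was lower in every BMP4 sample than in every untreated one, while the part of Dusp1-001 overlapped. GENCODE M21 lists 6 Dusp1 transcripts. Those besides Dusp1-001 include protein-coding ones, retained introns and a processed transcript, so the remainder may hold coding RNA too, and how reads were divided between overlapping transcripts rests on the authors' assembly step.

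**Figure D4:**
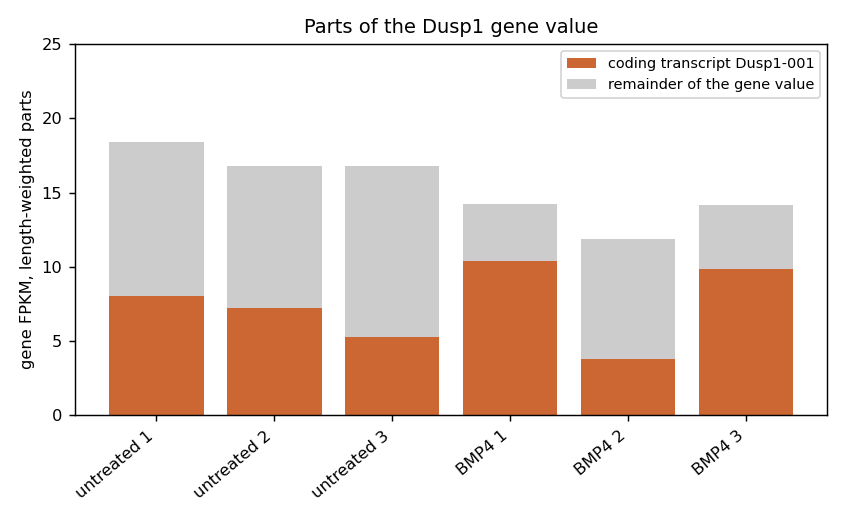
FPKM of the Dusp1 gene in each of the 6 samples (bar height), divided by length-weighted share into the coding transcript Dusp1-001 (orange) and the remainder (grey). The division uses the GENCODE M21 gene length, which is longer than the deposited locus, so the orange parts are too small. The orange part is largest in BMP4 replicates 1 and 3, at 10.4 and 9.85, and smallest in BMP4 replicate 2, at 3.79.

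For the other members except Fosl1 the listed coding transcript carried nearly the whole gene value. Each of the 9 genes had 1 transcript in the table. Its length-weighted share of the gene was 100% in every sample for Jun, Junb, Jund, Atf3 and Egr1. That share was 98.1% to 99.0% for Fosl2 and 89.9% to 100% for Fos. No share was computed for Fosl1, whose listed transcript had no length in GENCODE M21, but its gene and transcript values were the same. In the transcript test, where 8.55% of all transcripts passed in either direction, 2 of the 9 passed, both higher: Egr1-001 (limma adjusted p = 0.00215) and Junb-001 (0.0139). Junb-001 did not pass in limma without untreated replicate 2 (adjusted p = 0.0589), BMP4 replicate 1 (0.0651), BMP4 replicate 2 (0.0560) or BMP4 replicate 3 (0.0588). The listed Fosl1 transcript, Atf3-001 and Jund-001 were at adjusted p = 0.0592, 0.0698 and 0.0768, also from limma, with the same directions as their genes. Transcript values of Jun, Jund, Egr1 and Fosl1 equalled the gene values. Those of Junb and Atf3 were the whole gene value expressed on another length. For all of these genes, the pass of Junb-001 included, this test is no separate evidence.

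Replicates of a group differed in several members at once. Of the 9 genes, 6 were highest within the untreated group in replicate 1, which also had the highest FPKM sum, and 5 were lowest in replicate 3, while Atf3 and Egr1 were highest there. In the BMP4 group no sample led in more than 4 of the 9.

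Among the dimer partners outside the Fos and Jun families, the genes that passed were Maf genes. Of 8 tested genes among other basic leucine zipper partners, 3 rose and the other 5 did not pass, where 13.6% of all tested genes rose. The list median log2 fold change was 0.13. Maf, a large Maf factor with an activation domain, rose from 9.52 ± 0.409 to 19.9 ± 0.750 FPKM (limma adjusted p = 2.37e-05), and Maff, a small Maf protein without one, from 6.25 ± 0.456 to 13.2 ± 0.161. Mafg rose by a log2 fold change of 0.19 (limma adjusted p = 0.0320), a call kept without untreated replicate 1 but lost without any other single sample (0.0604 to 0.122). Jdp2, a repressor that pairs with Jun proteins, was at 32.9 ± 1.78 and 33.0 ± 1.63 FPKM, and did not pass (log2 fold change 0.00).

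Other immediate early genes were mixed, with more rises than falls. Of 29 tested, 13 rose, 4 fell and 12 did not pass, and the median log2 fold change was 0.12. Among all tested genes 13.6% rose and 14.3% fell, so the share that fell here was near that over all genes. The 13 became 8 without BMP4 replicate 2, and 8 without BMP4 replicate 3. Ctgf, a matricellular growth factor gene, rose from 3.34 ± 0.382 to 26.4 ± 1.86 FPKM and Ier3 from 14.3 ± 0.690 to 26.8 ± 2.20. The genes that fell were Plk2, a polo-like kinase gene, from 27.6 ± 1.60 to 14.9 ± 0.260 FPKM, the Krüppel-like factors Klf4 (35.3 ± 1.63 to 25.6 ± 0.985) and Klf2 (34.4 ± 2.92 to 22.04 ± 2.15), and Btg2, an antiproliferative gene, from 14.6 ± 0.113 to 10.6 ± 0.939. The relatives of Egr1 were low or had no row: Egr3 was at 0.214 ± 0.0361 and 0.572 ± 0.0899 FPKM, below the mean of 1 FPKM set for testing, and Egr2 and Egr4 were not analysed here. Myc did not pass, at 6.45 ± 0.106 and 5.81 ± 0.398 FPKM.

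Upstream of these genes, SRF and the ternary complex factors drive Fos and Egr1 when MAP kinases are active. Of 6 tested, Elk3, a ternary complex factor, rose from 19.5 ± 1.14 to 27.3 ± 0.649 FPKM (limma adjusted p = 0.000923) and Mkl1, an actin-regulated SRF coactivator, from 17.9 ± 1.92 to 23.3 ± 1.36 (0.0180), which did not pass without BMP4 replicate 2 (0.0670). The other 4 did not pass, among them Srf itself at 16.3 ± 1.42 and 17.7 ± 0.973 FPKM. In the MAP kinase cascades 3 of 19 tested rows rose and 1 fell, where 13.6% of all tested genes rose and 14.3% fell, so the share that rose was near that over all genes. Map2k7 was listed in 2 rows whose values overlapped widely between groups. Map3k1, a kinase upstream of JNK, rose from 2.41 ± 0.266 to 3.62 ± 0.0927 FPKM, Map3k7 (TAK1) by a log2 fold change of 0.28 and Map2k4, named after its values were seen, by 0.17, while Map2k1 (MEK1) fell by 0.17 on the log2 scale. Without BMP4 replicate 1 or BMP4 replicate 2 only 1 rose. The call of Map3k7 was lost without untreated replicate 2, BMP4 replicate 1 or BMP4 replicate 2 (limma adjusted p = 0.0593, 0.0815 and 0.0768), and that of Map2k1 without untreated replicate 2 or any of the BMP4 replicates (0.0600 to 0.104).

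The MAP kinase phosphatases other than Dusp1 rose or did not pass. Of 7 tested, 4 rose and 3 did not pass, where 13.6% of all tested genes rose, and the median log2 fold change was 0.36. Dusp10 rose from 4.20 ± 0.0969 to 6.30 ± 0.232 FPKM, and Dusp16, which like it acts on JNK and p38, from 3.26 ± 0.194 to 4.86 ± 0.606. Dusp4, a nuclear phosphatase, was at 0.490, 0.0887 and 0.415 FPKM in untreated and 1.85, 2.36 and 1.69 in BMP4 samples. Dusp4 reached the mean of 1 FPKM set for testing only through its BMP4 samples, and without BMP4 replicate 2 it was not tested, so its place among the 4 is no support for the list. The fourth, Dusp6, named after its values were seen, acts on ERK and rose from 1.19 ± 0.206 to 1.81 ± 0.155 FPKM, but did not pass without untreated replicate 1, untreated replicate 3, BMP4 replicate 1 or BMP4 replicate 3, each of which left 3 of the 7 higher. With a mean of at least 5 FPKM required, 3 of these genes were tested and 1 rose.

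Genes that textbooks list as AP-1 targets changed in both directions. Of 19 tested, 10 fell, 5 rose and 4 did not pass, where 14.3% of all tested genes fell and 13.6% rose. The median log2 fold change was -0.19 beside -0.0013 over all tested genes. The 10 include Lif, which at 1.79 ± 0.0600 and 0.386 ± 0.0894 FPKM reached the level set for testing only through its untreated samples. The strongest falls by p included the chemokine gene Ccl2, from 74.4 ± 3.09 to 19.0 ± 1.17 FPKM, and the metallothionein gene Mt2, from 65.3 ± 2.52 to 25.8 ± 2.72. Among those that rose were Spp1 (osteopontin, 22.7 ± 1.70 to 48.2 ± 1.11 FPKM), Hmga2, a chromatin protein gene (2.43 ± 0.140 to 6.32 ± 0.397), Hbegf (1.74 ± 0.143 to 3.13 ± 0.370) and Tgfb1 (11.1 ± 0.785 to 13.7 ± 0.160). The call of Tgfb1 was lost without BMP4 replicate 1 (limma adjusted p = 0.0537). Mmp13, Mmp10, Mmp1a, Il6 and Krt18 of this list had no row and were not analysed here. These genes respond to many regulators, and no test here links them to the factors above.

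**Figure D5:**
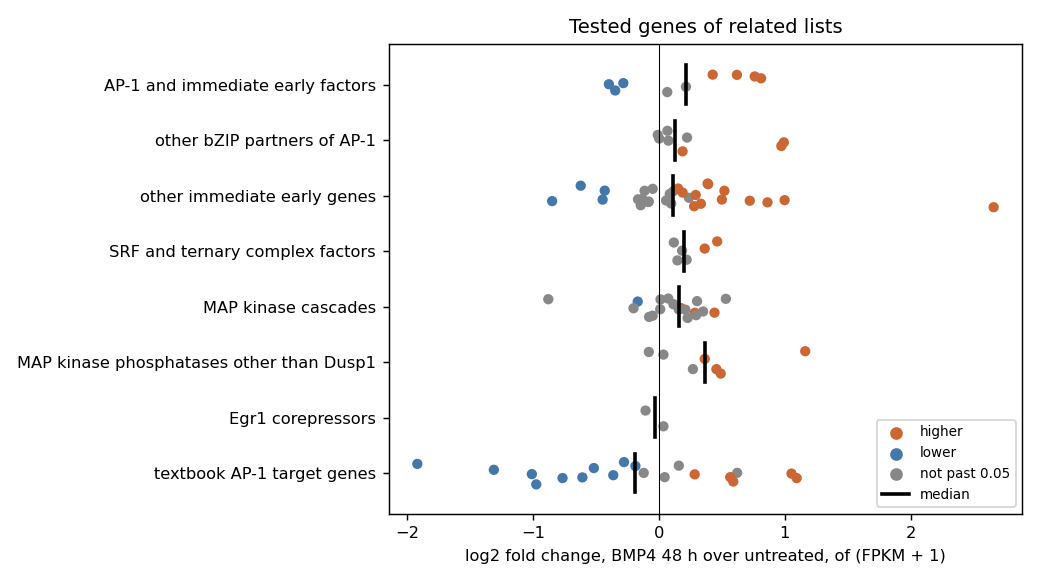
Log2 fold change of FPKM + 1 with BMP4 for each tested gene of the lists described (points, shifted vertically at random for legibility), coloured by whether the limma adjusted p passed 0.05; the black line is the median of each list. The target list has its median at -0.19, left of 0, and the members at 0.21.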

How the data were processed

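The deposited tables hold FPKM per gene and per transcript for 6 samples, per the file headers. The submitters' processing notes name FastQC, cutadapt, HISAT2 and StringTie on GRCm38, without versions or settings. In every listed gene the higher group mean was at least 0.502 FPKM, so genes low in both groups lie outside the list. Where every GENCODE M21 transcript of a gene was in the table (1151 genes), the gene value equalled the length-weighted sum of its transcripts within 1% in 99.9% of values. The low values showed no clear steps of whole reads (21% to 26% of values within 0.05 of a whole multiple at the best step, 18% to 22% for random values), so depth was not recovered. From the FPKM, log2(FPKM + 1) was taken, and features averaging 1 FPKM or more over the 6 samples were tested two-sided with limma 3.58.1 under R 4.3.3 (intensity trend, no covariate), adjusted over all tested genes by Benjamini-Hochberg with a threshold of 0.05; intervals are at 95%. The procedure was tested on simulated data. Gene names followed a rule: all members, the 3 smallest p of each list, list members called against most of their list, and for 2 members the 3 nearest genes. Other genes were named after their values were seen. Members and lists were chosen with earlier results of these data known. The alternatives were another pseudocount, filters, scalings, variance models, a replicate block and leaving out each sample. Python 3.11.15 was used for the rest.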

Additional observations from a re-analysis of the deposited data

How the results depend on the processing

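The 4 rises and 3 falls among the members became 2 and 2 with a mean of at least 5 FPKM required, where Fos, Fosl1 and Atf3 are no longer tested, and 5 and 3 under each of the 3 scalings, as Jun then passed. Leaving out 1 sample gave 3 to 5 rises and 2 to 3 falls, and 985 to 1419 rises over all genes. Egr1, Junb, Fosl1, Atf3 and Dusp1 kept their calls under every alternative that tested them, with log2 fold changes from 0.72 to 0.82, 0.55 to 0.69, 0.67 to 1.06, -0.49 to -0.35 and -0.39 to -0.27. Leaving out 1 sample gave Fosl2 log2 fold changes from -0.0032, without untreated replicate 1, to 0.116. Of the member transcripts, 1 to 2 rose when 1 sample was left out, and with equal sums or without the intensity trend 1 fell, Jund-001 and Atf3-001 respectively. The sign of Dusp1-001 turned without untreated replicate 3 (-0.0475), BMP4 replicate 1 (-0.116) or BMP4 replicate 3 (-0.0804). The cause of these changes was not tested. With the replicate number as a block (replicate block), 4 members rose and 2 fell, Jund being lost (limma adjusted p = 0.0761), and 1 member transcript rose. Same-numbered samples did not deviate together (correlations across genes -0.15, 0.05 and -0.22), so the numbers were not taken to pair the samples. The highest correlations were between other samples, untreated replicate 1 with BMP4 replicate 3 (0.22) and untreated replicate 3 with BMP4 replicate 1 (0.19). Another matching of the samples was not tested. The unknown depth limits the lowest values, Fos above all.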
